A study of Bos taurus with 129 samples.

Results

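Monocyte marker genes were followed in whole blood of beef cattle over the first weeks after arrival at a stocker facility. The 9 genes CD14, CSF1R, CD68, CX3CR1, VCAN, CCR2, CD36, FCGR3A and FCGR1A were taken by symbol from a count table of 32395 genes, and all 9 were found there and passed the filter on low counts that left 18937 genes for testing. Blood of 26 crossbred steers was drawn into Tempus RNA tubes at day 0 and again at days 13, 28, 45 and 60. The authors left out the library of AAC animal 48 at day 13.

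All steers were transported about 800 km before arrival, were vaccinated and given the dewormer doramectin at day 0, were vaccinated again on day 21 and were rotated among pens every 14 days. The INR cattle (n = 11) received Cu, Co, Mn and Zn as sulfates. The AAC cattle (n = 8, and 7 at day 13) received the same minerals complexed to amino acids. The COMBO cattle (n = 7) received the complexed minerals and an oral trace mineral drench before shipment, at day 0 and with any treatment for morbidity. By the disease label, 12 steers stayed healthy, 4 in each supplement, and 14 had bovine respiratory disease (BRD), 4 in AAC, 3 in COMBO and 7 in INR. The age of the steers and the day on which each was diagnosed are not given in the sources used here, so a BRD library may precede or follow the illness. Supplements were assigned to whole pens, so supplement and first pen cannot be told apart. Healthy COMBO cattle came from pen 5 and BRD COMBO cattle from pen 6, so disease label and first pen cannot be told apart within COMBO. Of the INR steers followed here, those of pen 7 were all BRD (animals 17, 27, 29 and 39). Within INR, disease label and first pen are therefore partly tied. The numbers in the library names ran in the order of the days. Whether libraries were prepared in that order is not given in the sources used here, and if so, day and preparation cannot be told apart. By the paper's methods, the libraries were pooled and run in equal parts over 2 lanes. Total counts ranged from 31613545 to 61692136 per library, with a median of 44268685.

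Monocytes leave the bone marrow, circulate for a short time and enter tissues, where they can become macrophages. In cattle as in other mammals, classical monocytes carry much CD14 and little CD16, the product of FCGR3A, whereas nonclassical monocytes carry little CD14 and much CD16, with intermediate cells between them. Classical cells are recruited to inflamed tissue through the chemokine receptor CCR2, and nonclassical cells patrol the vessel wall and carry CX3CR1, the receptor for fractalkine. Levels are given below as CPM, the counts of a gene per 1000000 counts of its library, scaled by TMM factors that bring libraries to a common scale. CPM depends on transcript length, so levels of different genes are not compared with each other.

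Of the markers of classical monocytes, CD14, VCAN, CD36 and FCGR1A were lower than at day 0 at every later day and CCR2 at 3 of the 4, the nonclassical markers CX3CR1 and FCGR3A were lowest at day 0 and higher later, and CSF1R, which every monocyte carries, was at most 1.22-fold lower. Over the 26 steers, CD14 was 2.26-fold lower at day 13 and 2.73-fold lower at day 60 than at day 0, VCAN was 2.27-fold lower at both days, and CD36 was 10.17-fold and 10.33-fold lower. CX3CR1 was 1.45-fold and 1.59-fold higher, and FCGR3A was 1.55-fold and 1.51-fold higher. No member passed the test between BRD and healthy cattle or between supplements at any day.

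In the change from day 0 over all cattle, fitted with each animal as its own control, 7 of 9 members passed a false discovery rate (FDR) of 0.10 at day 13, against 32.23% of all genes tested. At day 28 the count was 8 of 9 against 35.84%, at day 45 it was 6 of 9 against 29.90% and at day 60 it was 8 of 9 against 32.54%. Of the members called, 2 were higher than at day 0 at each day, and 5, 6, 4 and 6 were lower at days 13, 28, 45 and 60. The median log2 fold change of the 9 members was -0.38, -0.33, -0.33 and -0.47 at those days, while the median over all genes tested lay between -0.005 and 0.008. These 4 comparisons share the same day 0 libraries and are not independent of each other. In bulk RNA, fewer cells of a type and less RNA per cell cannot be told apart.

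**Figure D1:**
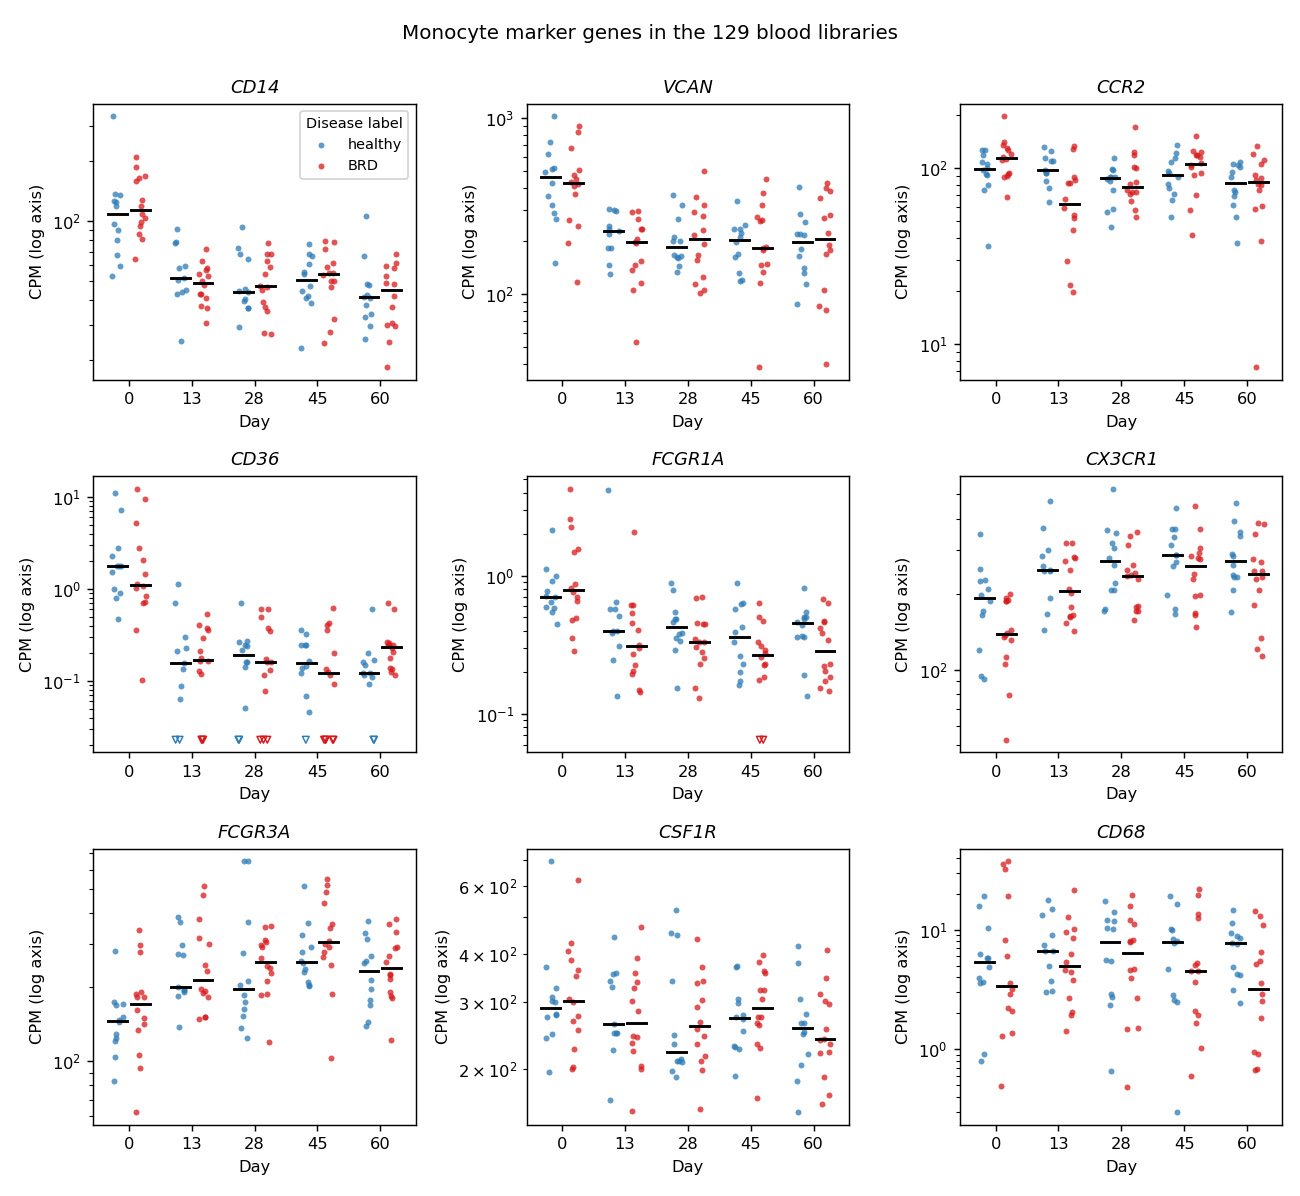
CPM (log axis) of each of the 9 members in every library by day, with healthy cattle in blue, BRD cattle in red, short bars at the group medians and open triangles at the foot of a panel for libraries with 0 counts. CD14, VCAN, CD36 and FCGR1A stand highest at day 0, CX3CR1 and FCGR3A stand lowest there, and the colours overlap in every panel.

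CD14, the co-receptor that hands bacterial lipopolysaccharide to Toll-like receptor 4, fell in every animal. At day 0 its level ran from 53.03 to 338 CPM with a median of 113.8 (n = 26). At day 13 it ran from 25 to 91.2 with a median of 50.8 (n = 25), and at day 28 from 27.2 to 93.1 with a median of 45.3 (n = 26). The days overlapped, yet 18 of 26 day 0 libraries stood above the highest library of day 13, and as many above that of day 28. At day 45 the range was 23.1 to 79.8 with a median of 53.9, and at day 60 it was 18.40 to 106.2 with a median of 41.7. The mean fell from 123.2 ± 59.1 CPM (SD, n = 26) at day 0 to 44.8 ± 18.3 (SD, n = 26) at day 60. Every animal was lower than its own day 0 at every later day, 25 of 25 at day 13 and 26 of 26 at the others. The log2 fold changes were -1.17 ± 0.12, -1.25 ± 0.11, -1.18 ± 0.11 and -1.45 ± 0.11 (SE) at days 13, 28, 45 and 60, with edgeR FDR values of 9.0e-14, 1.3e-15, 2.1e-14 and 8.9e-19. The 338 CPM of day 0 belonged to animal 6, a healthy COMBO steer, which also had the highest CSF1R and VCAN of that day.

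VCAN codes for versican, a large proteoglycan of the extracellular matrix that classical monocytes make. Its level ran from 116.5 to 1022 CPM at day 0 (median 431), from 53.302 to 304 at day 13 (median 206), from 100.6 to 498 at day 28 (median 195), from 38.31 to 448 at day 45 (median 191) and from 39.9 to 429 at day 60 (median 203). The later medians lay close to each other and well below that of day 0, with overlap between days. It was lower than the animal's own day 0 in 23 of 25 steers at day 13 and in 24, 22 and 24 of 26 at days 28, 45 and 60. Its fitted changes were -1.18, -1.12, -1.16 and -1.18 (log2, SE 0.14 at each day), and the largest edgeR FDR among them was 3.8e-10.

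CD36, a scavenger receptor for oxidised lipids and long-chain fatty acids that platelets also carry, was rare in these libraries. At day 0 its raw counts ran from 4 to 519, which gave 0.103 to 12.33 CPM with a median of 1.49. At the later days raw counts never passed 53, and the count was 0 in 5, 5, 6 and 2 libraries of days 13, 28, 45 and 60, where a count of 0 allows up to 3 counts. Median levels at those days were 0.166, 0.162, 0.136 and 0.166 CPM. It was lower than at day 0 in 25 of 25, 26 of 26, 26 of 26 and 25 of 26 animals. The fitted log2 fold changes were -3.35 ± 0.32, -3.48 ± 0.31, -3.72 ± 0.32 and -3.37 ± 0.31 (SE), with edgeR FDR values of at most 4.0e-15. The size of these folds rests on few reads per library. Of the 5 platelet genes tested, 4, 3, 2 and 3 rose at days 13, 28, 45 and 60 and none fell. Among all genes tested, 32.23%, 35.84%, 29.90% and 32.54% were called in either direction at those days. PF4, the chemokine platelet factor 4, was higher by 0.57 ± 0.12 (SE, log2) at day 13. The part of platelets in the CD36 values was not tested.

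FCGR1A, which codes for CD64, the high-affinity receptor for IgG, was also low, at 12 to 189 raw counts per library at day 0. Its CPM ran from 0.286 to 4.27 at day 0 (median 0.740) and its later medians were 0.398, 0.364, 0.285 and 0.375. The range at day 13, from 0.135 to 4.21, reached almost as high as that of day 0, whereas no library of days 28, 45 and 60 passed 0.892 CPM. It was lower than at day 0 in 21 of 25, 24 of 26, 25 of 26 and 23 of 26 animals. The log2 fold changes were -0.98, -1.27, -1.55 and -1.32 (SE 0.23 to 0.24), with edgeR FDR values of 0.0013, 1.2e-05, 3.5e-07 and 8.8e-06. In the RefSeq annotation of assembly ARS-UCD2.0, FCGR1A overlaps LOC788142, and Spearman's rho between the levels of these genes over the libraries was -0.03. Reads that the counting could assign to either gene cannot be separated here.

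CCR2, the receptor for the chemokine CCL2, changed less. Its medians were 106.8, 83.97, 83.3, 98.2 and 83.3 CPM at days 0, 13, 28, 45 and 60, and its ranges of 36 to 196 at day 0 and 7.39 to 132 at day 60 overlapped widely. It was lower and passed the test at day 13 (log2 fold change -0.38 ± 0.14 SE, edgeR FDR = 0.032), day 28 (-0.33 ± 0.13, edgeR FDR = 0.055) and day 60 (-0.43 ± 0.13, edgeR FDR = 0.012), but not at day 45 (-0.15 ± 0.13, edgeR FDR = 0.45). Without animal 43 the day 28 change was -0.29 with an edgeR FDR of 0.11. The 7.39 CPM at day 60 came from animal 40, a BRD steer whose library of that day had the RNA integrity number below 6 that the study's methods name.

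CX3CR1, the fractalkine receptor, rose. Its level ran from 52.7 to 348 CPM at day 0 (median 168), from 142 to 472.5 at day 13 (median 249) and from 158 to 527 at day 28 (median 241). At day 45 it ran from 148 to 448 (median 278) and at day 60 from 113.16 to 461 (median 248). Day 0 was the lowest of the 5 days in 22 of 26 animals and the highest in none, although the ranges of the days overlapped. It was higher than at day 0 in 23 of 25, 24 of 26, 24 of 26 and 25 of 26 animals. The log2 fold changes were 0.54, 0.66, 0.73 and 0.67 (SE 0.08), with edgeR FDR values of 2.8e-07, 2.4e-10, 5.2e-12 and 1.7e-10. CX3CR1 overlaps CCR8 in the RefSeq annotation, and CCR8 went from a median of 27.03 CPM (library totals alone) at day 0 to between 17.2 and 21.3 later, the opposite direction. Spearman's rho between the levels of CX3CR1 and CCR8 over the libraries was 0.37. Reads that the counting could assign to either of them cannot be separated here.

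FCGR3A, which codes for the low-affinity IgG receptor CD16, rose as well. At day 0 it ran from 62.18 to 342 CPM (median 150.1), at day 13 from 137 to 514 (median 199.8) and at day 28 from 119.5 to 649 (median 233). At day 45 it ran from 103.1 to 551 (median 285), its highest median, and at day 60 up to 377 (median 238). Day 0 was the lowest day in 20 of 26 animals and the highest in none. On the log2 scale it changed by 0.63, 0.66, 0.93 and 0.60 (SE 0.13), with edgeR FDR values of 0.00017, 4.1e-05, 2.6e-08 and 0.00025. It was higher than at day 0 in 23 of 25, 24 of 26, 25 of 26 and 22 of 26 animals.

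Both CX3CR1 and FCGR3A are also made by natural killer (NK) cells. Of 6 NK cell genes tested, 1, 0, 1 and 1 rose and 3, 4, 2 and 0 fell at days 13, 28, 45 and 60. Among them NCR1, an activating receptor, changed by -0.47 ± 0.12 (SE, log2) at day 13 and -0.24 ± 0.11 at day 60, where it did not pass, and GZMB, a cytotoxic protease, rose by 0.58 ± 0.20 at day 13. Among all genes tested, 32.23%, 35.84%, 29.90% and 32.54% were called in either direction at days 13, 28, 45 and 60. The summed level of the 6 NK cell genes had medians of 207, 189, 178, 200.5 and 212 CPM at days 0 to 60. The part of NK cells in the CX3CR1 and FCGR3A values was not tested.

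CSF1R, the receptor for colony stimulating factor 1 on which monocytes depend for survival, ran from 197 to 697 CPM at day 0 with a median of 299.7. Its later medians were 262.5, 245, 274 and 249 CPM. It was lower than at day 0 in 14 of 25 animals at day 13 and in 18, 16 and 20 of 26 at days 28, 45 and 60, so the direction differed among animals. The log2 fold changes were -0.17, -0.20, -0.15 and -0.29 (SE 0.09), of which those of day 28 (edgeR FDR = 0.089) and day 60 (edgeR FDR = 0.012) passed. The call at day 28 was lost when any one of 14 animals was left out (6, 10, 16, 21, 29, 30, 31, 34, 39, 43, 46, 49, 50 or 57), with log2 fold changes still between -0.20 and -0.17 and edgeR FDR values up to 0.15. CSF1R at day 13 was called without animal 23 (-0.20, edgeR FDR = 0.096) or without animal 43 (-0.19, edgeR FDR = 0.094).

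CD68, a lysosomal glycoprotein used as a macrophage marker, passed at no day. Its level ran from 0.496 to 37.6 CPM at day 0 (median 4.44), and its later medians were 6.30, 6.76, 4.92 and 5.07. The log2 fold changes were -0.12 ± 0.36, -0.06 ± 0.36, -0.33 ± 0.36 and -0.47 ± 0.36 (SE), and within animals the ratio to day 0 ran from 0.013 to 26.2. In the RefSeq annotation CD68 lies close to EIF4A1, a translation initiation helicase, and to MPDU1, a gene of dolichol sugar use. Over all libraries the coefficient of variation was 90.8% for CD68, 48.4% for EIF4A1 and 33.8% for MPDU1, and 10.4% for the sum of the 3 genes. The mean of CD68 was 7.5 CPM (library totals alone) and that of the sum 397.7. The spread of the sum therefore says little about the spread of CD68. EIF4A1 and MPDU1 ran opposite to each other (Spearman's rho -0.82), and CD68 had a rho of 0.34 with EIF4A1 and -0.40 with MPDU1. These correlations share library and locus and are given as a description.

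**Figure D2:**
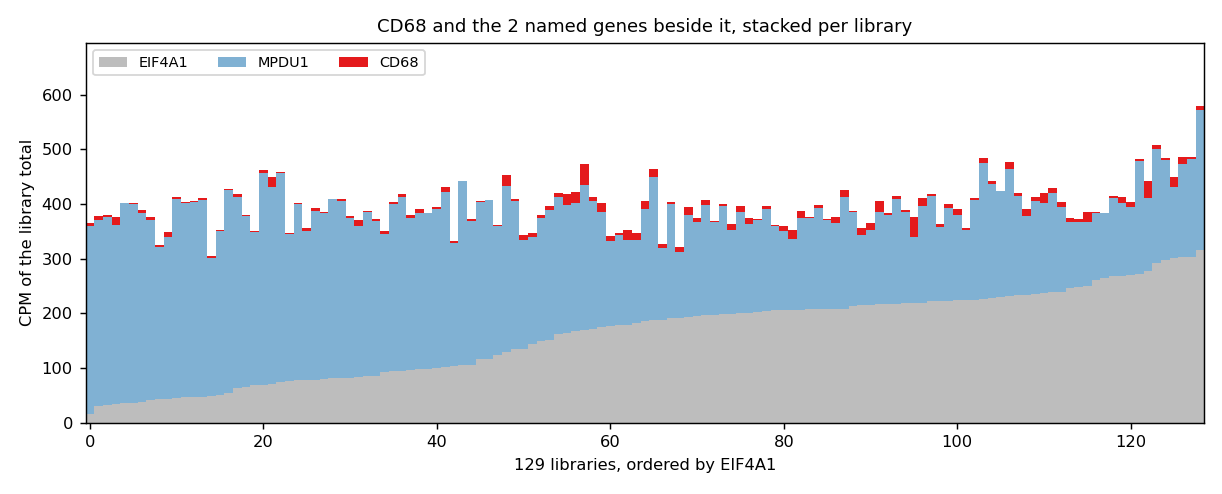
CPM (library totals alone) of EIF4A1, MPDU1 and CD68 stacked in each library, ordered from left to right by EIF4A1. The height of the stack varies little (coefficient of variation 10.4%), while EIF4A1 and MPDU1 run opposite to each other within it and CD68 is a thin band at the top.

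The opposite courses of the members can be read within each library, where the scaling between libraries cancels. The ratio of FCGR3A to CD14 had a median of 1.42 at day 0, with a range of 0.615 to 5.31. Its medians were 4.57, 4.86, 5.04 and 5.47 at days 13, 28, 45 and 60. It was above the animal's own day 0 in 24 of 25, 25 of 26, 26 of 26 and 26 of 26 animals. The exception at days 13 and 28 was animal 18, a BRD COMBO steer that already had the ratio of 5.31 at day 0. The ratio of CX3CR1 to CD14 went from a median of 1.53 to 4.16, 5.28, 5.24 and 6.55, and was above day 0 in all animals at all later days. The ratio of CD14 to CSF1R went from a median of 0.381 to 0.176, 0.185, 0.180 and 0.167. Because of transcript length, only the change of such a ratio can be read, not its size.

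**Figure D3:**
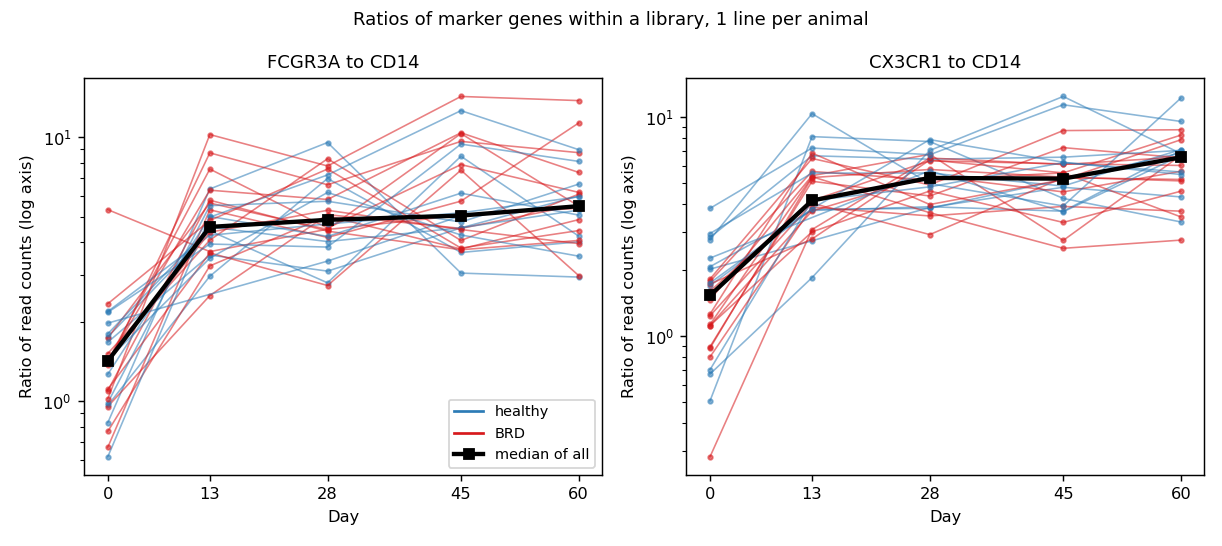
Ratios of FCGR3A to CD14 and of CX3CR1 to CD14 within each library (log axis) by day, with a line for each of the 26 animals, healthy in blue and BRD in red. The medians rise from 1.42 and 1.53 at day 0 to 5.47 and 6.55 at day 60, and the lines lie above their own day 0 at day 13 in 24 of 25 and 25 of 25 animals.

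The share of a member's variance of log2 CPM that lay between days was 50.8% for CD14 and 50.6% for CD36. It was 28.7% for VCAN, 27.5% for FCGR1A, 25.1% for CX3CR1 and 24.3% for FCGR3A. For CCR2, CSF1R and CD68 it was 9.54%, 5.34% and 1.16%.

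Within the healthy cattle 5 of 9 members passed at day 13 (10.95% of all genes), 6 of 9 at day 28 (20.98%), 6 of 9 at day 45 (8.55%) and 6 of 9 at day 60 (11.64%). Within the BRD cattle the counts were 7 of 9 (17.43%), 6 of 9 (20.05%), 6 of 9 (22.51%) and 8 of 9 (19.62%). CD14, VCAN and CD36 fell and CX3CR1 and FCGR3A rose at all 4 days in both. CD14 at day 13 changed by -0.99 ± 0.17 (SE, log2) in healthy and by -1.35 ± 0.15 in BRD cattle, and CX3CR1 by 0.43 ± 0.12 and 0.64 ± 0.11. FCGR1A changed in healthy cattle by -0.87, -1.09 and -0.99 on the log2 scale at days 28, 45 and 60, and these 3 calls were lost without animal 6 (edgeR FDR between 0.16 and 0.19). The day 28 call was also lost without animal 7, 10, 34, 46 or 57, and the day 60 call without animal 10 or 30, with edgeR FDR values up to 0.13. FCGR3A at day 13 in healthy cattle was 0.54 with an edgeR FDR of 0.1001 without animal 46 (0.66 with it), and at day 60 in BRD cattle 0.43 with an edgeR FDR of 0.10 without animal 17 (0.55 with it). CSF1R in BRD cattle at day 60 was called (-0.33, edgeR FDR = 0.057), and the call was lost without animal 21, 39, 40 or 43, with edgeR FDR values up to 0.14. Other members of the BRD cattle became called when 1 animal was left out: CCR2 at day 28 without animal 21, 23, 31, 40 or 41 (log2 fold changes of -0.46 to -0.43, edgeR FDR of at least 0.077), CSF1R at day 28 without animal 54 (-0.30, edgeR FDR = 0.093) and CD68 at day 60 without animal 39 (-1.53, edgeR FDR = 0.062) or 54 (-1.42, edgeR FDR = 0.077).

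**Figure D4:**
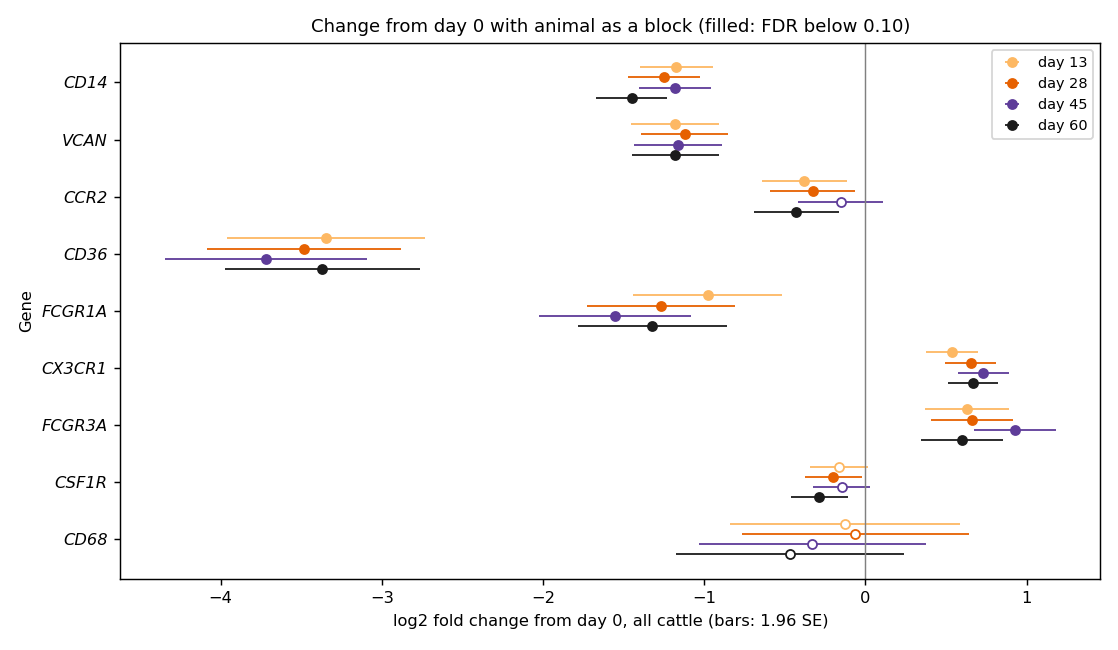
Log2 fold change from day 0 of each member at days 13, 28, 45 and 60 in all cattle, with 95% intervals from the edgeR fit with animal as a block. CD14, VCAN, CD36 and FCGR1A lie below 0 and CX3CR1 and FCGR3A above it.

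The difference of the change between BRD and healthy cattle was tested directly, and 0 of 9 members passed at each of the 4 days, where 0% of all genes passed. One of the 36 differences had an unadjusted p below 0.05. This was CCR2 at day 13, with a change of -0.80 ± 0.18 (SE, log2) in BRD cattle, lower in 12 of 14, and of 0.05 ± 0.20 in healthy cattle, lower in 5 of 11. The difference of the 2 changes was -0.85 ± 0.27 (unadjusted p = 0.0024, edgeR FDR = 1). DESeq2 also called 0 of the 36, and over all genes it called 17, 8, 26 and 14 at days 13, 28, 45 and 60.

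Between BRD and healthy cattle at the same day, 0 of 9 members passed at each of the 5 days, where 0.0158%, 0%, 0.00528%, 0% and 0.00528% of all genes passed at days 0, 13, 28, 45 and 60. By edgeR 2 of these 45 differences had an unadjusted p below 0.05, and DESeq2 and limma with voom called 0 of 45 each. Over all genes, DESeq2 called 98, 36, 40, 31 and 30 at those days, and voom 0, 0, 8, 0 and 0. CCR2 at day 13 ran from 19.7 to 133 CPM in BRD cattle with a median of 62.6 (n = 14), and from 63.8 to 130.4 in healthy cattle with a median of 97.6 (n = 11). The lower values were thus in BRD cattle, while the upper ends of the ranges met. The log2 difference of BRD minus healthy was -0.64 ± 0.22 (SE, unadjusted p = 0.0035, edgeR FDR = 0.94). Among the 4 BRD AAC steers CCR2 stood at 29.6, 21.7 and 19.7 CPM in 3 of them and at 127.7 in animal 9. Without animal 9 the difference was -0.997 with an edgeR FDR of 0.030, and without any other single animal it lay between -0.71 and -0.55 and was not called. CX3CR1 at day 0 ran from 52.7 to 200 CPM in BRD cattle (median 139, n = 14) and from 92.2 to 348 in healthy cattle (median 192, n = 12). Its log2 difference was -0.42 ± 0.18 (SE, unadjusted p = 0.019, edgeR FDR = 0.58). It lay between -0.28 and -0.18 at the later days over all pens, but in the pens that held both disease labels it was -0.22 at day 0 and 0.09, 0.27, 0.05 and -0.06 at days 13, 28, 45 and 60, so its direction depended on which pens entered.

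**Figure D5:**
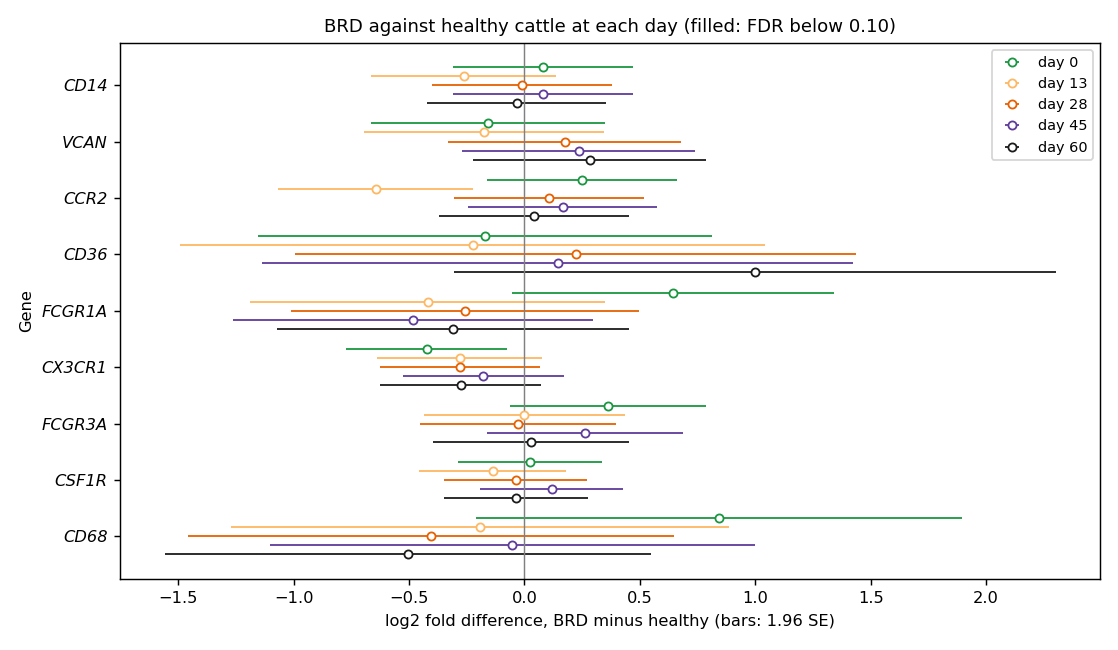
Log2 difference of BRD minus healthy cattle for each member at each of the 5 days, with 95% intervals from the edgeR fit of group means. None passed an FDR of 0.10, and CCR2 at day 13 (-0.64) and CX3CR1 at day 0 (-0.42) are the intervals that leave out 0.

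For the other members the range of the differences is given with the widest 95% interval around any of them. Calls were made on the FDR, so the ± values are not limits of what could go unseen. CSF1R differed by between -0.14 and 0.12 (log2) over the 5 days with a 95% interval of at most ± 0.32, CD14 by between -0.26 and 0.08 (± 0.40), FCGR3A by between -0.03 and 0.36 (± 0.44) and VCAN by between -0.17 and 0.28 (± 0.52). FCGR1A differed by between -0.48 and 0.64 (± 0.78). CD36 and CD68 had intervals of up to ± 1.303 and ± 1.08, so differences past 2-fold were within them. Such differences were also within intervals of FCGR1A, for example at day 0 (-0.054 to 1.342) and day 13 (-1.187 to 0.35). The day 0 differences depended on which pens entered. In pens 2, 3, 4 and 8, which held both disease labels (8 healthy and 7 BRD animals, none of them COMBO), with pen as a term, CD14 was higher in BRD cattle at day 0 by 0.76 ± 0.23 (SE, log2, edgeR FDR = 0.047) and CSF1R by 0.55 ± 0.18 (edgeR FDR = 0.065). Over all pens the same differences were 0.08 and 0.02, and neither was called. In the fit of pens 2, 3, 4 and 8, 8.24% of all genes were called at day 0, and 0.623%, 0.343%, 0.0370% and 0.0739% at days 13, 28, 45 and 60, where no member was called. The other members were not called in it at day 0. Their log2 differences of BRD minus healthy there were 0.64 ± 0.30 (SE) for VCAN, against -0.16 over all pens, 1.02 ± 0.53 for CD36 (-0.17), 1.34 ± 0.67 for CD68 (0.84), 1.08 ± 0.48 for FCGR1A (0.64), 0.55 ± 0.24 for FCGR3A (0.36) and 0.32 ± 0.33 for CCR2 (0.25). Of the 9 members 6 had an unadjusted p below 0.05 at day 0, as did 20% of all genes. Leaving out animal 6 alone, the healthy COMBO steer with 338 CPM, moved the CD14 difference to 0.29. The summed neutrophil markers at day 0 ran from 1121 to 9050 CPM in BRD cattle (median 2057) and from 1043 to 3843 in healthy cattle (median 1650), and their part in these differences was not tested.

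Between supplements, 0 of 9 members passed in any pair at any day. For AAC against COMBO the share of all genes that passed was 0.565%, 0.929%, 0.0317%, 0% and 0% at days 0, 13, 28, 45 and 60. For COMBO against INR it was 0% at days 0 to 45 and 0.00528% at day 60, and for AAC against INR it was 0%, 0.0422%, 0.0106%, 0% and 0%. The test of whether the course over the days differed among supplements called 0 of 9 members and 0.0106% of all genes. The smallest unadjusted p among the members was 0.083 by edgeR and 0.067 by DESeq2. Of the 135 pairwise differences, 3 had an unadjusted p below 0.05 by edgeR, and DESeq2 and voom called none.

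FCGR3A at day 0 ran from 94.3 to 342 CPM in COMBO (median 171, n = 7) and from 62.18 to 191 in INR (median 142, n = 11), and the groups overlapped. The log2 difference was 0.63 ± 0.26 (SE, unadjusted p = 0.017, edgeR FDR = 0.61). Without animal 16 it was 0.82 with an edgeR FDR of 0.090. VCAN at day 60 ran from 85.3 to 429 CPM in COMBO (median 256, n = 7) and from 39.9 to 386 in INR (median 164.5, n = 11), with a difference of 0.74 ± 0.32 (SE, unadjusted p = 0.020, edgeR FDR = 0.69). FCGR1A at day 13 ran from 0.135 to 0.618 CPM in COMBO (median 0.309, n = 7) and from 0.143 to 4.21 in INR (median 0.452, n = 11), with a difference of -1.01 ± 0.47 (SE, unadjusted p = 0.035, edgeR FDR = 0.95). None of the 3 differences passed once adjusted for the number of genes tested. In BRD cattle alone CSF1R at day 0 was higher in AAC than in COMBO by 0.77 ± 0.28 (SE, log2, edgeR FDR = 0.089), against 0.11 over both disease labels, and 12.89% of all genes were called in that comparison. The BRD COMBO steers all came from pen 6 and the BRD AAC steers from pens 2 and 8, so supplement and first pen cannot be told apart there.

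Members that fell were correlated with each other to unlike degrees over all libraries, which share day, animal and scaling. Pearson's r of log2 CPM was 0.73 for CD14 with VCAN, 0.66 for CD14 with CSF1R and 0.66 for CD14 with CD36. With the mean of each group and day taken out, these were 0.53, 0.72 and 0.38. CSF1R with FCGR3A had an r of 0.48, and 0.65 after centring. CD14 with FCGR3A had an r of -0.04, and 0.44 after centring, so that the pair moved apart over days while it moved together among animals of a group and day. VCAN with FCGR3A had an r of -0.24, and -0.02 after centring. CCR2, which also fell, had an r of 0.44 with VCAN, 0.43 with CD14, 0.34 with CSF1R, 0.25 with FCGR1A and 0.13 with CD36. The members that rose, CX3CR1 and FCGR3A, had an r of 0.435, and 0.25 after centring.

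By Pearson's r of log2 CPM over all libraries, the 3 genes most like each member were found among all genes tested. For CD14 they were PDK4 (r = 0.85), a kinase that turns fuel use from glucose to fatty acids, MGST1 (0.85), a microsomal glutathione transferase, and SPIDR (0.85), a DNA repair scaffold. For VCAN they were NRG1 (0.86), a growth factor of the neuregulin family, CD163 (0.84), the haptoglobin-haemoglobin scavenger receptor, and THBS1 (0.83), the matrix protein thrombospondin 1. CSF1R was most like SCPEP1 (0.86), a serine carboxypeptidase. FCGR3A was most like C16H1orf115 (0.87), TNFSF9 (0.82) and TCF7L2 (0.82), and CX3CR1 was most like GFOD1 (0.79), PEA15 (0.79) and NEDD9 (0.77). For CD36 the leading genes were CPT1A (0.76), the gate of mitochondrial fatty acid oxidation, LOC514978 (0.75) and FCGRT (0.75), the neonatal Fc receptor. With the mean of each group and day taken out, these 3 values for CD36 were 0.436, 0.44 and 0.425. Those of CD14 were then 0.70, 0.74 and 0.74, and those of VCAN 0.79, 0.74 and 0.73. For FCGR3A they were 0.81, 0.78 and 0.78, and for CX3CR1 0.65, 0.68 and 0.635. CCR2 (ZNF618, 0.64), FCGR1A (TMEM63A, 0.63) and CD68 (SH3BP2, 0.48) had less likeness to any gene.

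Among 29 tested genes of monocyte function from a list of 30 (ligands, receptors, transcription factors and lipopolysaccharide sensing), 1, 2, 6 and 2 rose and 12, 13, 9 and 14 fell from day 0 in all cattle at days 13, 28, 45 and 60. Their median log2 fold changes were -0.20, -0.20, -0.06 and -0.26. Among all genes tested, 32.23%, 35.84%, 29.90% and 32.54% were called in either direction at those days. Rises slightly outnumbered falls among those called genes at each day. CD163 had the largest fall of the 4 named here, with log2 fold changes of -1.72, -1.76, -1.65 and -1.69 (SE 0.16 to 0.17), with edgeR FDR values of at most 2.8e-13. THBS1 changed by -1.36, -1.41, -1.45 and -1.56 (SE 0.19) and MSR1, a scavenger receptor for modified lipoproteins, by -0.67, -0.86, -0.73 and -0.94 (SE 0.11). NR4A1, the nuclear receptor on which nonclassical monocytes depend, rose by 0.88, 1.17, 1.15 and 0.84 (SE 0.10), with edgeR FDR values of at most 1.0e-10. In the healthy cattle 2, 1, 2 and 1 genes of the list rose and 6, 11, 4 and 8 fell, and in the BRD cattle 1, 2, 1 and 2 rose and 11, 12, 8 and 12 fell. The share of all genes called in either direction was 10.95%, 20.98%, 8.55% and 11.64% in healthy cattle. In BRD cattle it was 17.43%, 20.05%, 22.51% and 19.62%. Between BRD and healthy cattle no gene of the list passed by edgeR, and 4, 1, 2, 1 and 3 of the 29 had an unadjusted p below 0.05 at days 0 to 60. Of all genes, 7.11%, 3.78%, 8.63%, 4.22% and 3.64% did so. No gene of the list passed between supplements. The number of its genes with an unadjusted p below 0.05 was at most 4 in any pair and day, against 3.75% to 13.4% of all genes.

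Markers of other blood cells moved with day as well, and their part in the members' changes was not tested. Their counts below stand against 32.23%, 35.84%, 29.90% and 32.54% of all genes called at days 13, 28, 45 and 60. Counts in such short lists therefore do not by themselves show a change of a cell type. The summed level of the 9 members had medians of 1248, 1076, 1038, 1213 and 1104 CPM at days 0, 13, 28, 45 and 60, with full ranges of 830.5 to 2627 at day 0 and 634 to 1741 at day 60. No member was at 0 in all libraries of a day, and FCGR1A at every day and CD36 after day 0 had medians below 1 CPM. Of 9 neutrophil genes, 4, 5, 3 and 4 fell and 0, 0, 1 and 0 rose, with a summed median that went from 1808 CPM (range 1043 to 9050) at day 0 to between 1121 and 1361 later. The genes that fell there include S100A8, S100A9 and S100A12, which monocytes also make, with S100A12 at -0.82 ± 0.13 (SE, log2) at day 13. Of 8 T cell genes, 1 fell at day 45 and none at the other days, and none rose. Of 6 B cell genes 2, 3, 5 and 3 rose and none fell. All 6 erythroid genes rose at day 13, and 4, 5 and 4 at the later days, with a summed mean of 211 ± 388 CPM (SD, n = 26) at day 0 against later means of 932 to 3868. Of 4 eosinophil genes 0, 0, 2 and 2 rose and 2, 2, 0 and 1 fell. At 2 neutrophil markers, CD177 and LTF, the medians were below 1 CPM.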

How the data were processed

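Whole blood mRNA was sequenced in 129 libraries of 26 steers. Reads were trimmed by the authors with Trimmomatic 0.39, mapped with HISAT2 to ARS-UCD1.3 and assembled with StringTie 2.2.0. The counts deposited by the authors are gene counts that prepDE derives from coverage (read length 150), without normalization. Whether strand was used in counting is not given in the sources used here.

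Genes were tested in R 4.3.3 with edgeR 4.0.16: filterByExpr (18937 genes), TMM factors, a common dispersion, quasi-likelihood F-tests and p-values adjusted by Benjamini and Hochberg per comparison and day, at 0.10. BRD and healthy cattle and supplements were compared in a fit of 30 group means (biological coefficient of variation 39.0%), and changes from day 0 in a fit with animal as a block (28.4%). Standard errors are Wald errors, and intervals are 1.96 SE. The labels pair libraries by animal: residuals of the same animal had a median r of 0.39, those of different animals -0.01, and all 26 animals were above 0.1. No same-group libraries held identical values.

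The deposited table has no exon lengths and no sequences were used. The members and lists were chosen with earlier results of these data known. The named members are all 9, their 3 most similar genes (1 not reported here), and the 4 function genes CD163, NR4A1, THBS1 and MSR1. Alternatives were RLE factors, library totals, 2 other filters, a trended dispersion, DESeq2 1.42.0, limma 3.58.1, pens with both labels, an FDR of 0.05, and the removal of single libraries or animals. The fits were tested on simulated data.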

Additional observations from a re-analysis of the deposited data

Results flagged for a closer look

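In AAC and COMBO cattle at each day, the highest and lowest library of each member was compared with its nearest neighbour by Dixon's criterion. The INR groups of 11 are too large for it. Its rate of 1 in 20 holds for independent, normally distributed values. The groups here share animals, mix both disease labels and are on the CPM scale, so an excess over that rate cannot be read. Of 90 groups of 7 or 8 animals, 11 had a library that stood apart. Animal 6, a healthy COMBO steer, accounted for 4 of them: CD14 at day 0 (337.7 CPM, next 126.4), CSF1R at day 0 (697, next 368), CD36 at day 0 (11.2, next 2.29) and CD14 at day 60 (106.2, next 53.1). Animal 21, a BRD AAC steer, accounted for 3: VCAN at day 28 (498 CPM, next 290), FCGR1A at day 13 (2.07, next 0.511) and FCGR1A at day 28 (0.693, next 0.376). CD68 at day 0 was 37.6 CPM in animal 31, a BRD AAC steer, with 15.98 in the next. CCR2 at day 0 was 36 CPM in animal 42, a healthy COMBO steer, the lowest of its group, with 88.9 in the next. CD36 was 0.608 CPM in animal 34 (healthy, AAC) at day 60, with 0.248 in the next, and 0.619 CPM in animal 54 (BRD, COMBO) at day 45, with 0.247 in the next. No explanation of these values was tested.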

How the results depend on the processing

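No alternative reversed the direction of a called change. Of the 36 changes from day 0 in all cattle, 29 were called, and 25 to 29 under the other factors, filters, dispersion, tool and threshold. Without the replicate block the counts were 27 in all, 17 in healthy (23 with it) and 22 in BRD cattle (27 with it), and the tests of the difference between labels and of supplement by day stayed at 0. The filter of 1 CPM in 12 libraries removed FCGR1A. With each animal left out in turn the counts were 28 to 30 in all, 20 to 23 in healthy and 26 to 29 in BRD cattle, 0 to 1 of 45 between BRD and healthy cattle, 0 to 1 of 135 between supplements, and 0 in both remaining tests. In pens with both disease labels 2 of 45 BRD differences were called (CD14 and CSF1R at day 0, where 8.24% of all genes passed). In BRD cattle alone 1 of 135 supplement differences was called (CSF1R at day 0, AAC minus COMBO, where 12.89% of all genes passed). The cause was not tested. Of the called fold changes in all cattle under each alternative, 307 kept their call and 8 lost it, all 8 for CCR2 or CSF1R at day 28. Calls within healthy or BRD cattle were also lost, without the replicate block, without single animals and, for FCGR1A, with every gene kept. The 24 correlations that moved did so when the group means were taken out. Without the day 60 library of animal 40, 29 and 28 changes were called in all and BRD cattle. CD36 and FCGR1A rest on few counts, and depth limits their precision.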
